A study of Mus musculus with 7 samples.

Results

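Fat tissue is an endocrine organ as well as a store of lipid, and 7 of its secreted products are described here in mammary tumours and mammary glands: Adipoq (adiponectin), Lep (leptin), Retn (resistin), Cfd (adipsin, complement factor D), Rbp4 (retinol binding protein), Angptl4 and Angptl8 (angiopoietin-like proteins). They were chosen by name, with earlier results of these data known, as 7 of the 50600 genes of the deposited tables. All 7 were found in every table. The study sequenced RNA from 4 mammary tumours of ECD transgenic mice and from 3 control mammary glands. The tumours comprised spindle cell carcinoma 3, papillary carcinoma 4 and 2 adenosquamous carcinomas (1a and 1b), each taken from a central piece of the tumour. The control glands carry only the label control. The labels give no strain, age, sex, transgene promoter or control genotype, and they do not say whether 1a and 1b came from 1 animal. Samples within each group are called independent, with nothing further on the animals, so the p-values measure the spread between these samples.

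Adiponectin and leptin are hormones made chiefly by white fat cells: adiponectin acts on muscle and liver through the receptors Adipor1 and Adipor2, and leptin reports fat stores to the brain through Lepr. Adipsin is the protease that starts the alternative complement pathway by cleaving factor B, and in mice fat is its main source. Resistin is a hormone of mouse fat cells, and Rbp4 carries vitamin A in blood and is made in liver and fat. Angptl4 and Angptl8 act on lipoprotein lipase, the enzyme that releases fatty acids from circulating lipoproteins. Angptl4 is also made outside fat and is a well-known target of the PPAR nuclear receptors and of the hypoxia factor HIF1. The mammary gland of the mouse lies in a fat pad, so that a whole-gland RNA sample holds fat cell RNA.

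The promoters of Lep and Adipoq are shown because these are the 2 best-known hormones of the group, and because both genes were near 0 in tumours 1b, 3 and 4. Both runs are 250 bases upstream of the start, on the plus strand of GRCm38.p6, from RefSeq. The Lep window is chr6:29059971-29060220 and the Adipoq window is chr16:23146286-23146535. Capitals mark matches to TTGCGCAA (the palindromic C/EBP motif), CCAAT and TATAA on either strand, and TTATAA in Lep holds overlapping TATAA matches on both strands.
Lep: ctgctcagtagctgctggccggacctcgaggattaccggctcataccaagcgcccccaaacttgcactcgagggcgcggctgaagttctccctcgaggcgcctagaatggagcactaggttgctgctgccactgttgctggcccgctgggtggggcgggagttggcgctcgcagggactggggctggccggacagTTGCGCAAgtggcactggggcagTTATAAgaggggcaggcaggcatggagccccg
Adipoq: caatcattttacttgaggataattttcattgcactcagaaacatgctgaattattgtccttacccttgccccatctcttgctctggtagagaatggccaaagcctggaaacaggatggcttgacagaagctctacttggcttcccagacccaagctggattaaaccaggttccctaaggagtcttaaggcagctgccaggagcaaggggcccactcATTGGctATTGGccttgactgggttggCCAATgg
Lep has TTGCGCAA from -55 to -48 relative to the start, which 0.164% of 32851 RefSeq promoter windows of the same length hold. Its TATAA matches lie between -32 and -27, and 22.8% of windows hold TATAA. Adipoq has 3 CCAAT matches, at -34 to -30, -27 to -23 and -7 to -3, and 33.8% of windows hold CCAAT. Of the 6 members with a window, Lep was the only one with TTGCGCAA. Such matches are descriptions of the letters and were not measured for binding.

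The libraries held 5420562 to 28638143 counts in tumours and 5148438 to 35631279 counts in glands. Genes of mitochondrial DNA took 18.3 to 32.6% of the counts in tumours and 48.4 to 64.8% in glands, so library size was scaled by TMM factors (0.551 to 1.605 over the 7 libraries). All levels below are counts scaled to a common library size (CPM). Summed CPM of a list of 24 other genes of fat cells and fat metabolism, among them the secreted lipases Lpl and Lipf, were 1428, 583, 399 and 5080 in tumours 1a, 1b, 3 and 4, and 18139, 50457 and 50652 in glands 1, 2 and 3. Lipf had no count except in the spindle cell tumour, at 12.3 CPM. Summed CPM of 18 skeletal muscle genes were 939, 196, 17.6 and 11.6 in those tumours, and 57729, 120 and 90502 in glands 1, 2 and 3, so that muscle RNA was high in glands 1 and 3. The part of muscle RNA and of mitochondrial RNA in the results was not tested beyond the alternatives given.

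In the control glands, the factors differed widely in level and in evenness. Per kilobase of exon, Cfd led at 1176 ± 754 CPM per kb, and Adipoq followed at 254.4 ± 24.4 CPM per kb (SD, n = 3 for each). Retn stood at 67.5 ± 47.2, Lep at 31.8 ± 15.5, Angptl8 at 30.9 ± 39.5, Rbp4 at 21.2 ± 16.3 and Angptl4 at 9.36 ± 4.32 CPM per kb. Cfd was above Adipoq in every gland, by at least 1.51 times per kb, and Adipoq was above the other 5 in every gland. Retn, Lep, Angptl8, Rbp4 and Angptl4 did not differ from each other, neighbour to neighbour, beyond the spread between glands. The order was the same in TPM over non-mitochondrial genes (transcripts scaled to a common sum), from 3095 for Cfd to 24.6 for Angptl4. Adipoq was the most even of the 7 over the glands, with a coefficient of variation of 9.61%. Angptl8 was the least even at 127.6%: gland 2 held 66.2 CPM, against 7.07 and 7.02 CPM in glands 1 and 3.

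**Figure D1:**
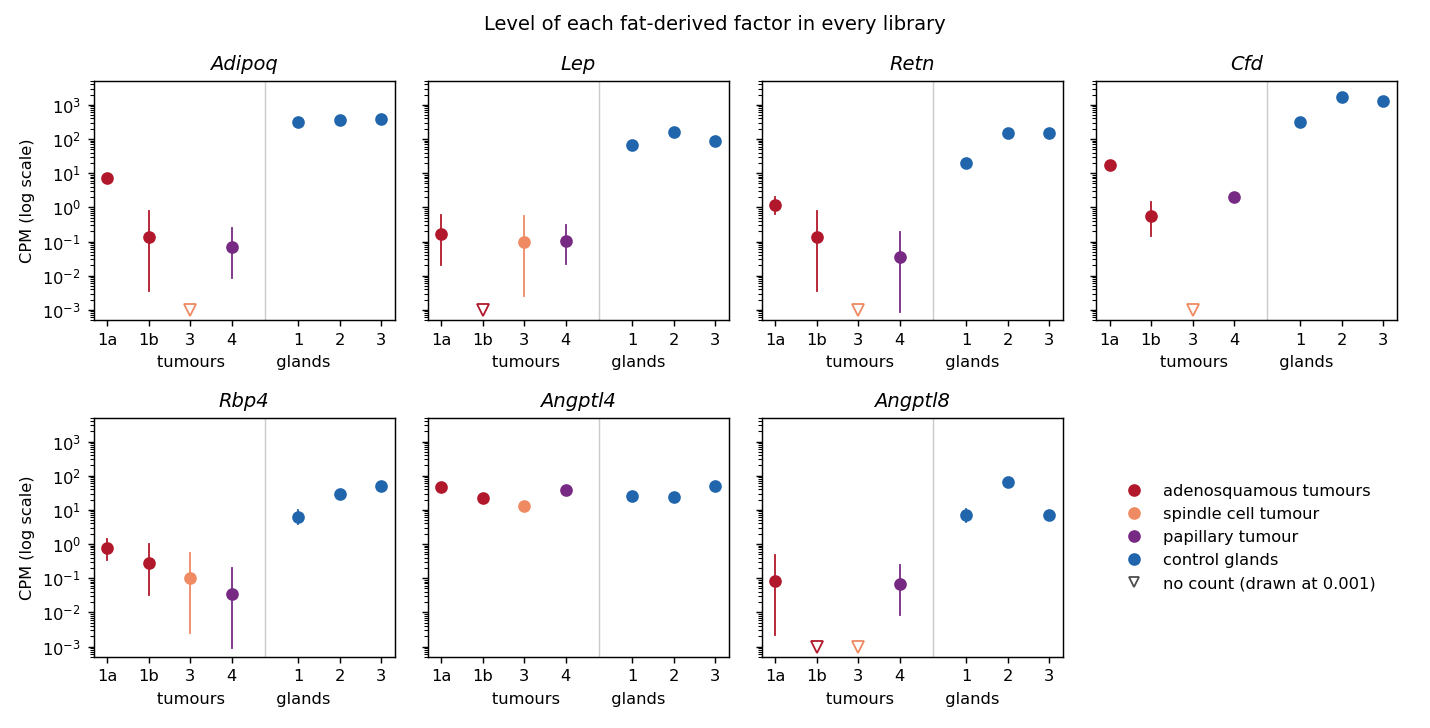
Level of each factor in every library, in CPM on a log axis; tumours are left of the line and glands right of it, bars are 95% counting intervals and open triangles are libraries with no count. In 6 of the 7 panels all 4 tumours lie below all 3 glands, and in the Angptl4 panel the groups overlap.

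Adipoq, the most even of the gland hormones, was nearly lost from the tumours. The gene lies on chromosome 16 at 23146536-23158028 (plus strand, GRCm38, ENSMUSG00000022878). It measured 7.24, 0.136, 0 and 0.0697 CPM in tumours 1a, 1b, 3 and 4 (85, 1, 0 and 2 counts), against 315, 358 and 381 CPM in glands 1, 2 and 3. All 4 tumours were below all 3 glands, and 1a was far above the other 3 tumours. The means were 1.86 ± 3.58 CPM in tumours (SD, n = 4) and 351.4 ± 33.8 CPM in glands (SD, n = 3). Adipoq fell, with a log2 fold change of -7.55 (SE 1.80, 95% interval -11.75 to -3.35, edgeR quasi-likelihood adjusted p = 0.0449). In bulk tissue, fewer fat cells and less RNA per fat cell cannot be told apart, here and for every factor below.

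In the edgeR fit over all libraries, Lep had the largest log2 fold change of the 7 and the smallest SE of the 6 that fell. Adipoq exceeded it with limma-voom (-10.51 for Adipoq, -9.66 for Lep), and so did Adipoq and Retn without 1a (-12.22 and -10.98, with -10.19 for Lep). The gene lies on chromosome 6 at 29060220-29073877 (plus strand, ENSMUSG00000059201). Lep measured 0.170, 0, 0.0985 and 0.105 CPM in tumours 1a, 1b, 3 and 4, which are 2, 0, 1 and 3 counts. Glands 1, 2 and 3 held 66.1, 165 and 88.5 CPM. The tumours lay together near 0, and the lowest gland was 389 times the highest tumour. Lep fell by 9.93 on the log2 scale (SE 0.63, 95% interval -11.39 to -8.46, edgeR adjusted p = 0.00612).

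Cfd, the adipsin gene, was the most abundant factor of the glands and the one with the most counts left in tumours after Angptl4. It lies on chromosome 10 at 79890853-79892655 (plus strand, ENSMUSG00000061780). Cfd measured 17.8, 0.544, 0 and 2.06 CPM in tumours 1a, 1b, 3 and 4 (209, 4, 0 and 59 counts), against 317, 1673 and 1264 CPM in glands 1, 2 and 3. Gland 1 was the low gland and 1a the high tumour, yet gland 1 held 17.8 times the level of 1a. Means were 5.10 ± 8.51 CPM in tumours (SD, n = 4) and 1085 ± 696 CPM in glands (SD, n = 3). Cfd fell by 7.73 on the log2 scale (SE 1.84, 95% interval -12.00 to -3.45, edgeR adjusted p = 0.0445).

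Retn and Rbp4 shared a low gland 1 and a relatively high tumour 1a. Retn, on chromosome 8 at 3655770-3660110 (plus strand, ENSMUSG00000012705), measured 1.19, 0.136, 0 and 0.0348 CPM in tumours 1a, 1b, 3 and 4, against 20.5, 150 and 149 CPM in glands 1, 2 and 3. The tumour values of Retn are 14, 1, 0 and 1 counts, and gland 1 had 58 counts. Its groups did not overlap, and its log2 fold change was -8.32 (SE 1.39, edgeR adjusted p = 0.0166). Rbp4, on chromosome 19 at 38116629-38125281 (minus strand, ENSMUSG00000024990), measured 0.766, 0.272, 0.0985 and 0.0348 CPM in those tumours, against 6.37, 28.9 and 50.1 CPM in glands 1, 2 and 3. Its groups did not overlap either, although gland 1 held 8.31 times the level of tumour 1a, the narrowest gap of the 6. That gap rests on 18 counts in gland 1 and 9 in 1a, with 2, 1 and 1 counts in tumours 1b, 3 and 4. Rbp4 fell by 6.68 on the log2 scale (SE 1.09, edgeR adjusted p = 0.0156).

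The angiopoietin-like pair split. Angptl8, which partners other members of its family in blocking lipoprotein lipase after feeding, measured 0.0851, 0, 0 and 0.0697 CPM in tumours 1a, 1b, 3 and 4, or 1, 0, 0 and 2 counts. Glands 1, 2 and 3 held 7.07, 66.2 and 7.02 CPM. The tumours were all below the glands, with gland 2 apart from the other glands, and Angptl8 fell by 8.90 on the log2 scale (SE 1.25, edgeR adjusted p = 0.0110). Angptl8 lies on chromosome 9 at 21835510-21837347 (plus strand, ENSMUSG00000047822), within Dock6 on the opposite strand but sharing 0 exonic bases with it. Dock6 had 151, 124, 86 and 243 counts in tumours 1a, 1b, 3 and 4, and 21, 484 and 417 counts in glands 1, 2 and 3.

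Angptl4, the inhibitor of lipoprotein lipase that many tissues make, was at gland-like levels in the tumours. It lies on chromosome 17 at 33773750-33781830 (minus strand, ENSMUSG00000002289). Angptl4 measured 47.6, 22.2, 13.0 and 38.7 CPM in tumours 1a, 1b, 3 and 4 (559, 163, 132 and 1110 counts), against 25.1, 23.5 and 50.8 CPM in glands 1, 2 and 3. Tumours 1a and 4 lay within the range of the glands, and 1b and the spindle cell tumour lay below it. The means were 30.4 ± 15.6 CPM in tumours (SD, n = 4) and 33.1 ± 15.3 CPM in glands (SD, n = 3). The log2 fold change was -0.13 with a 95% interval of -1.29 to 1.03 (edgeR adjusted p = 0.888), which leaves room for a change of up to about that size in either direction. Its sign was not stable: it was 0.32 without gland 3, 0.035 without 1b and 0.16 without the spindle cell tumour, with no adjusted p under 0.05.

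In all, 6 of the 7 factors fell in tumours and none rose. Of the 14149 genes tested, 8.47% passed in either direction, 4.57% fell and 3.9% rose. The factors were chosen with earlier results of these data known, so these shares are no test of the group. The same 6 had every tumour below every gland, which held for 13.2% of the genes tested. All 7 factors passed the filter on low counts, but 6 of them passed it through the 3 glands, with at most 2 tumours over the minimum. Passing in this way favours genes that are higher in glands, so it is no separate support for the fall of those 6. Only Angptl4 was over the minimum in all 7 libraries. The median log2 fold change of all genes tested was 0.12.

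The calls of 4 of these 6 factors depended on single libraries. With each of the 7 libraries left out in turn, Lep and Angptl8 passed every time. Retn lost its call without 1b (adjusted p = 0.0553) and without gland 3 (adjusted p = 0.0668), and so did Rbp4 (adjusted p = 0.0530 and 0.0681). Adipoq lost its call without 1b, without the spindle cell tumour and without gland 1, 2 or 3 (adjusted p 0.0704 to 0.124 in edgeR). Cfd lost its call without any library other than 1a (adjusted p 0.0544 to 0.123). Without 1a the log2 fold change of Adipoq was -12.22. The count of factors called was 2 without 1b or gland 3, and 4 without the spindle cell tumour, gland 1 or gland 2. With gland 2, the gland with little muscle RNA, as the only control, the log2 fold changes of the 6 were -6.73 to -10.63, and none passed in edgeR with 1 gland taken to vary like the tumours (smallest adjusted p = 0.173).

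**Figure D2:**
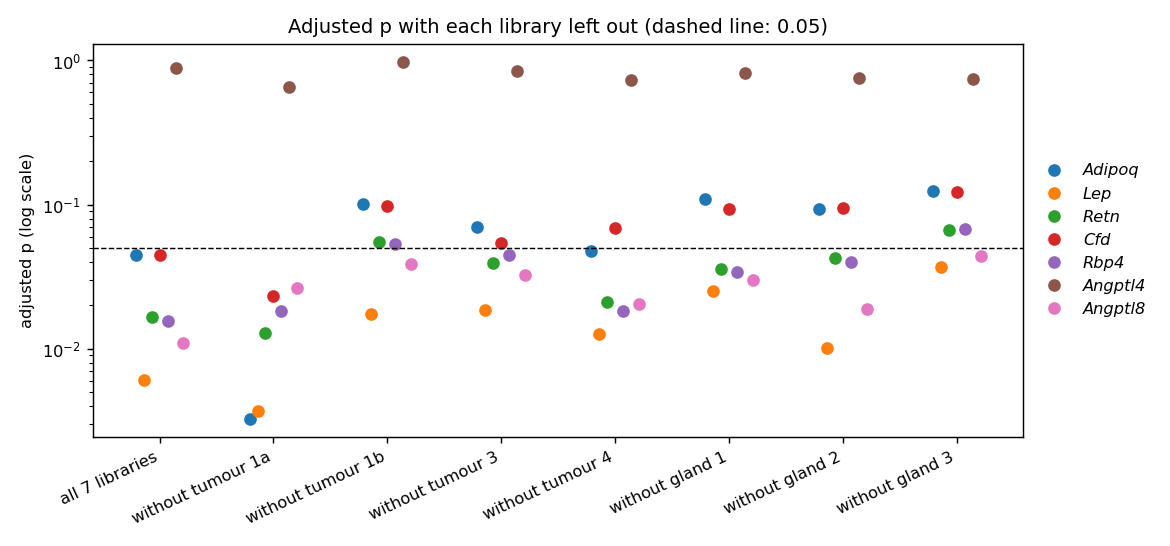
Adjusted p of each factor in tumours against glands (log axis) with all 7 libraries and with each library left out. Lep and Angptl8 stay under the dashed line at 0.05 in every column, and Angptl4 stays above it.

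The 2 adenosquamous tumours set against the 3 glands gave the same picture with 1 exception. Both tumours and all 3 glands are also part of the comparison of all tumours, so the 2 comparisons are not independent. The log2 fold changes were -9.97 for Lep (edgeR adjusted p = 0.0180), -8.87 for Angptl8 (0.0416), -7.24 for Retn (0.0292), -6.60 for Adipoq (0.0428) and -5.73 for Rbp4 (0.0312). Cfd had a log2 fold change of -6.91 with a 95% interval of -11.16 to -2.66 and missed the threshold (adjusted p = 0.0588). Angptl4 had a log2 fold change of 0.015 with a 95% interval of -1.18 to 1.21 (adjusted p = 0.986). Thus 5 of 7 passed, against 10.4% of the 14708 genes tested in either direction and 5.36% that fell. Without 1b or without gland 3, no gene at all passed in this comparison, with 2994 and 3471 genes at an unadjusted p under 0.05. Without 1a 2 factors passed, and without gland 1 3 passed.

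**Figure D3:**
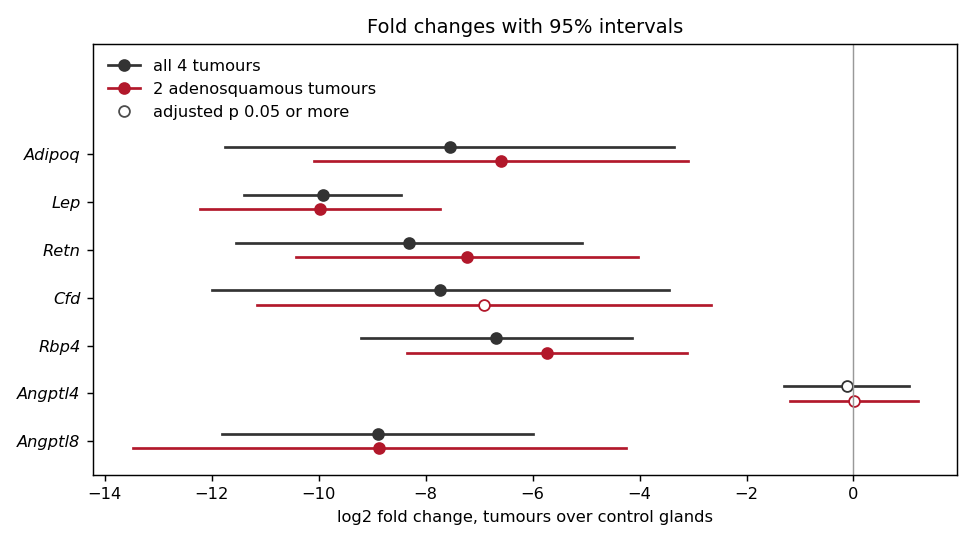
Log2 fold change of each factor over the control glands, for all 4 tumours (dark) and for the 2 adenosquamous tumours (red), with 95% intervals; open points have an adjusted p of 0.05 or more. The intervals of 6 factors lie wholly below 0 and those of Angptl4 span it.

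The spindle cell and papillary tumours are single libraries, so their values have no test. In the spindle cell tumour, 6 factors were at least 2 lower on the log2 scale than the gland mean and outside the gland range, as were 9.19% of the genes tested (7.27% were past that size upward). The differences were -12.79 for Cfd, -11.47 for Adipoq, -9.29 for Retn, -8.80 for Lep, -6.93 for Angptl8 and -6.58 for Rbp4. With no count for Cfd, Adipoq, Retn and Angptl8 in this tumour, their differences depend on the prior count of 2, and with a prior count of 0.5 they were -14.79, -13.47, -11.29 and -8.92. In the papillary tumour the same 6 were past that size, as were 12.6% of the genes tested (9.77% upward), with -10.83 for Adipoq, -8.94 for Retn, -8.76 for Lep, -8.65 for Cfd, -7.06 for Rbp4 and -6.29 for Angptl8. Angptl4 was not past it in either of these tumours, where its differences were -1.25 (spindle cell) and 0.31 (papillary).

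How much of each factor was left differed between tumours. In 1a, Adipoq was at 2.06% of the gland mean (95% counting interval 1.64 to 2.55), Cfd at 1.64% (1.43 to 1.88) and Rbp4 at 2.69% (1.23 to 5.11), while Lep was at 0.160% (0.0193 to 0.577). The interval of Lep in 1a lies below those of Adipoq, Cfd, Retn and Rbp4, by counting error only. In 1b, Adipoq was at 0.0387% (0.000980 to 0.216) and Cfd at 0.0502% (0.0137 to 0.128). The papillary tumour held Cfd at 0.190% (0.144 to 0.244), above its Adipoq at 0.0198% (0.00240 to 0.0716). In all, 4 of the factors had no count in the spindle cell tumour. Taking 3 counts per library as the floor, Cfd was there at least 3670-fold lower than the gland mean, Adipoq at least 1189-fold, Retn at least 361-fold and Angptl8 at least 90.5-fold. In 1b, Lep was at least 261-fold and Angptl8 at least 65.5-fold lower by the same floor. Angptl4 was at 143.6, 66.9, 39.2 and 116.7% of the gland mean in tumours 1a, 1b, 3 and 4.

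The 23 other fat cell genes with gland counts gave a scale for these shares. Their median level was 3.60, 0.641, 0.542 and 1.28% of the gland mean in tumours 1a, 1b, 3 and 4. In tumour 1a, all 6 lost factors were below that median, and in 1b Rbp4 was above it. The counting intervals of Rbp4 held the median in both tumours (1.23 to 5.11% in 1a, 0.116 to 3.45% in 1b). So did those of Retn (0.00323 to 0.711%) and Angptl8 (0 to 1.88%) in 1b. In the spindle cell tumour, those of Rbp4 (0.00877 to 1.93%) and Angptl8 (0 to 1.36%) held its median. The fat cell genes ranged from 1.17, 0, 0 and 0.0681% up to 23.0, 30.1, 33.1 and 96.9% in tumours 1a, 1b, 3 and 4. No factor but Angptl4 came near the upper end. In 1a, Adipoq, Cfd and Rbp4 lay within that range, and Lep, Retn and Angptl8 lay below it. The list also holds genes of general fat metabolism, so its median is not a scale for fat cell RNA alone.

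**Figure D4:**
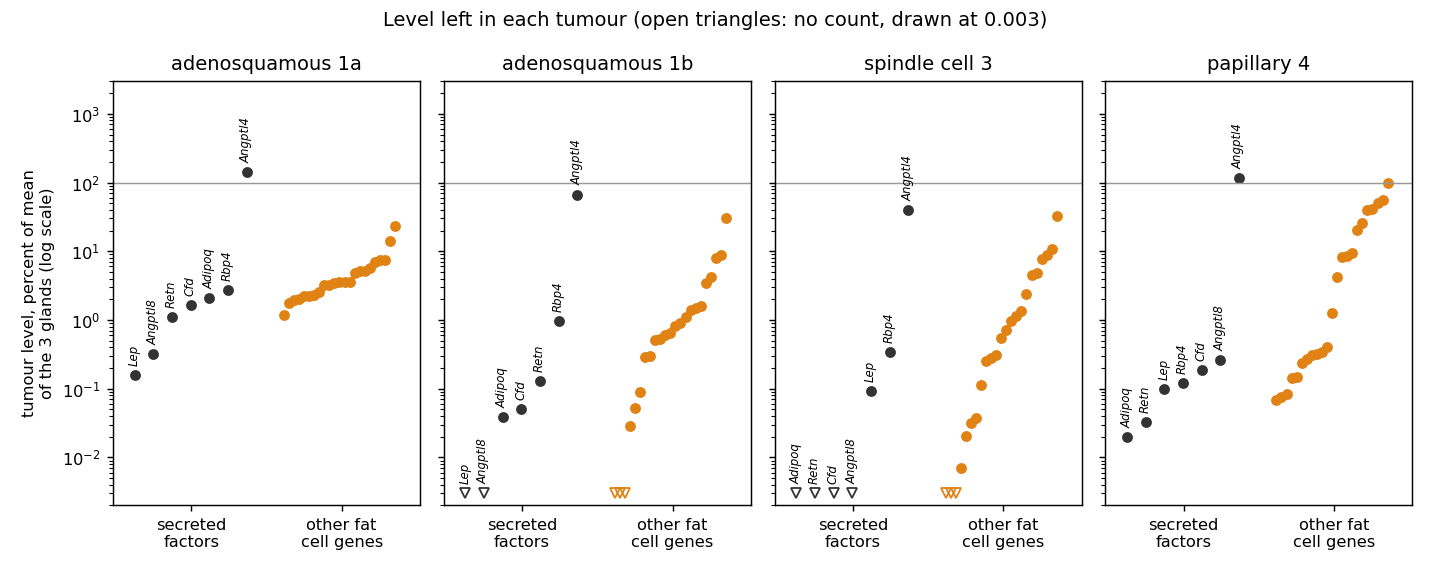
Level left in each tumour as a percentage of the mean of the 3 glands (log axis) for the 7 secreted factors (dark) and for 23 other fat cell genes (orange); the line marks 100%. In every tumour Angptl4 stands apart from the other factors, and the orange points of the papillary tumour reach up to the line.

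The mix of the factors changed with their loss. Together the 7 took 0.0135, 0.00414, 0.00251 and 0.00610% of the non-mitochondrial counts of tumours 1a, 1b, 3 and 4, against 0.118, 0.425 and 0.273% in glands 1, 2 and 3. Angptl4 made up 63.6, 95.3, 98.5 and 94.2% of the counts of the 7 in those tumours, and 3.32, 0.955 and 2.55% in glands 1, 2 and 3. Cfd made up 23.8, 2.34, 0 and 5.01% in the tumours and 41.9, 67.9 and 63.5% in the glands. The ratio of Angptl4 to each of the other 6 was higher in every tumour than in every gland. This separation was fixed by the levels given above, and the 6 ratios share Angptl4, so the test that follows adds no evidence. Each of these 6 ratios gave p = 0.0571 in a two-sided exact permutation test, the smallest that 4 against 3 libraries can give over 35 splits (Benjamini-Hochberg adjusted p = 0.0571), so none could pass 0.05. With 0 to 4 counts of the other factor in many tumours, the size of these ratios depends on the prior count of 2 and is not given.

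Most other genes of white fat cells fell as well. Of 23 tested, 16 fell (against 4.57% of all genes tested), 0 rose and 7 did not pass, with a median log2 fold change of -5.53. Pnpla3, a lipid droplet enzyme, fell by 6.33 (edgeR adjusted p = 0.00805), and Lipe, the hormone-sensitive lipase, fell by 3.96 (adjusted p = 0.0101). Plin1, which coats the fat droplet, measured 9.53, 0.136, 0.0985 and 0.383 CPM in tumours 1a, 1b, 3 and 4, against 170, 350 and 270 CPM in glands 1, 2 and 3. Cidec, a fat droplet protein, had no count in 1b or the spindle cell tumour. Fewer genes of the list passed without gland 1 (6), gland 2 (7), gland 3 (1), 1b (6) or the spindle cell tumour (8). Of 7 brown fat genes tested, Cox7a1, a mitochondrial respiratory subunit of muscle and brown fat, fell by 4.97 (adjusted p = 0.0282), and the other 6 did not pass. Ucp1, the heat-producing uncoupler of brown fat, measured 43.3, 0.408, 0 and 0 CPM in tumours 1a, 1b, 3 and 4, against 230, 305 and 37.3 CPM in glands 1, 2 and 3, with gland 3 below tumour 1a.

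Among receptors and partners of adiponectin and leptin, 1 gene rose and 1 fell in edgeR over all tumours. Adipor2 fell by 2.28 (95% interval -3.49 to -1.07, edgeR adjusted p = 0.0399), whereas Adipor1 had a log2 fold change of 0.027 (95% interval -0.71 to 0.77). Adipor2 measured 48.1, 41.8, 43.5 and 137 CPM in tumours 1a, 1b, 3 and 4, against 205, 404 and 376 CPM in glands 1, 2 and 3. Ero1l, an oxidase of the endoplasmic reticulum that promotes adiponectin secretion, rose by 1.77 (adjusted p = 0.0240). The remaining 6 of the 8 tested in the adiponectin list did not pass. Lepr, the leptin receptor, had 21.1, 9.39, 1.48 and 9.72 CPM in those tumours and 8.84, 8.32 and 10.3 CPM in the glands, a log2 fold change of 0.19 (95% interval -1.48 to 1.86). None of the 8 leptin signalling genes passed in edgeR, and 2 had an unadjusted p under 0.05. Ptpn1, a phosphatase that dampens leptin signalling, had a log2 fold change of 1.24 (adjusted p = 0.0588).

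In the alternative complement list, which holds the partners of adipsin, 2 of 10 tested genes fell and 0 rose. Hc, complement C5, measured 0.255, 0, 0.0985 and 0.139 CPM in tumours 1a, 1b, 3 and 4, against 14.5, 8.29 and 8.01 CPM in glands 1, 2 and 3. It fell by 6.17 on the log2 scale (edgeR adjusted p = 0.00835) and kept its call with any 1 library left out. Cr1l, a regulator that protects cells from complement, fell by 1.23 (adjusted p = 0.0146). C3, the central complement protein, had a log2 fold change of -1.35 (adjusted p = 0.191), and C3ar1, a receptor for a fragment of C3, one of 2.49 (adjusted p = 0.134).

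Among the genes that handle the vitamin A carried by Rbp4, 1 of 9 tested rose. Rdh10, which oxidises retinol, rose by 1.79 (edgeR adjusted p = 0.0494), and no gene of the list rose with median-ratio or upper-quartile scaling, without mitochondrial genes, or without any 1 library other than the papillary tumour. Stra6, the receptor of Rbp4, measured 18.2, 31.8, 0.197 and 1.39 CPM in tumours 1a, 1b, 3 and 4, against 0, 0.0315 and 0.427 CPM in glands 1, 2 and 3, so that it was high in the adenosquamous pair (adjusted p = 0.0955 over all tumours and 0.0204 in the adenosquamous tumours). Aldh1a1, which makes retinoic acid, had a log2 fold change of -3.82 (adjusted p = 0.0579). Around lipoprotein lipase, Furin, a protease that cleaves angiopoietin-like proteins and the lipase, rose by 1.27 (adjusted p = 0.0267), and it alone passed of 9 tested over all tumours. In the adenosquamous comparison Furin did not pass (0.0569), whereas Sdc1, a heparan sulphate proteoglycan, rose by 4.86 (0.0183), and Lpl fell by 4.16 (0.0267), Gpihbp1, its anchor on capillaries, by 2.02 (0.0411) and Apoc1, an apolipoprotein, by 1.89 (0.0462). Lpl itself, the lipase, measured 46.4, 104, 1.48 and 513 CPM in those tumours, against 659, 1635 and 1575 CPM in the glands (over all tumours, log2 fold change -2.96, adjusted p = 0.208). In the adenosquamous comparison 4 of 10 retinol genes tested rose and 0 fell, and 1 of 11 complement genes rose and 4 fell. There 1 of 8 adiponectin list genes rose and 2 fell, and 1 of 8 leptin list genes rose. Among all genes of that comparison, 5.01% rose and 5.36% fell. Over the receptor, complement, retinol and lipase lists together, in all tumours, 3 of 44 tested genes rose and 3 fell. That total of 6 was 13.6% of the genes tested, against 8.47% of all genes tested. DESeq2 called 18 of the 44 and 3403 of all 14149 genes, and library size only called 17 and 3954. The edgeR total became 1 without 1b or without gland 3, 2 without the spindle cell tumour, gland 1 or gland 2, and 12 without the papillary tumour.

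Relatives of the factors and other secreted products of fat fell or did not pass in edgeR over all tumours. Of 28 tested, 5 fell and 0 rose (17.9% passed, against 8.47% of all genes tested), and 2 fell without gland 3. DESeq2 called 5 of the 28 higher and 7 lower. In the adenosquamous comparison, 2 of 6 relatives of adiponectin tested rose and 1 fell. Of 21 other secreted products tested there, 1 rose and 5 fell. Among all genes of that comparison, 5.01% rose and 5.36% fell. C1qtnf9, a relative of adiponectin, measured 1.53, 0.816, 0.690 and 1.08 CPM in tumours 1a, 1b, 3 and 4, against 19.1, 23.0 and 17.9 CPM in glands 1, 2 and 3. It fell by 4.26 on the log2 scale (edgeR adjusted p = 0.00675) and kept its call with any 1 library left out. C1qtnf3, another relative, measured 46.7, 6.26, 0.985 and 0.871 CPM in those tumours, against 0, 0.441 and 0.284 CPM in the glands (log2 fold change 5.41, adjusted p = 0.0964). Retnla, a relative of resistin made by alternatively activated macrophages and fat, fell by 7.60 (adjusted p = 0.00835). Nrg4, a brown fat factor that acts on liver, fell by 6.92 (adjusted p = 0.0130), Orm1, an acute phase protein, by 4.55 (adjusted p = 0.0107) and Rarres2, the chemokine chemerin, by 3.49 (adjusted p = 0.0494). Saa3, an acute phase protein of inflamed fat, had a log2 fold change of 5.16 (adjusted p = 0.0528). Of the angiopoietin-like relatives, Angptl2 measured 129, 58.0, 5.71 and 3.24 CPM in those tumours, against 44.2, 109 and 122 CPM in the glands.

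Known PPAR and hypoxia targets were read beside Angptl4, which belongs to both sets. Of 14 PPAR targets, 6 fell (against 4.57% of all genes tested), 0 rose and 8 did not pass. Fabp4, the fatty acid binding protein of fat cells, fell by 6.37 on the log2 scale (edgeR adjusted p = 0.0196). Cpt1a, which admits fatty acids to mitochondria, had a log2 fold change of 1.33 (adjusted p = 0.0815). Of 14 hypoxia factor targets, Slc2a1, the glucose transporter, rose by 2.96 (adjusted p = 0.0136) and Ero1l rose as given above, while Bnip3, of mitochondrial turnover, fell by 1.99 (adjusted p = 0.0156). Over both lists 9 genes passed, 32.1% of those tested, against 8.47% of all genes tested. That total became 0 without gland 3, 2 without gland 1 or 1b, and 4 without gland 2 or the spindle cell tumour.

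**Figure D5:**
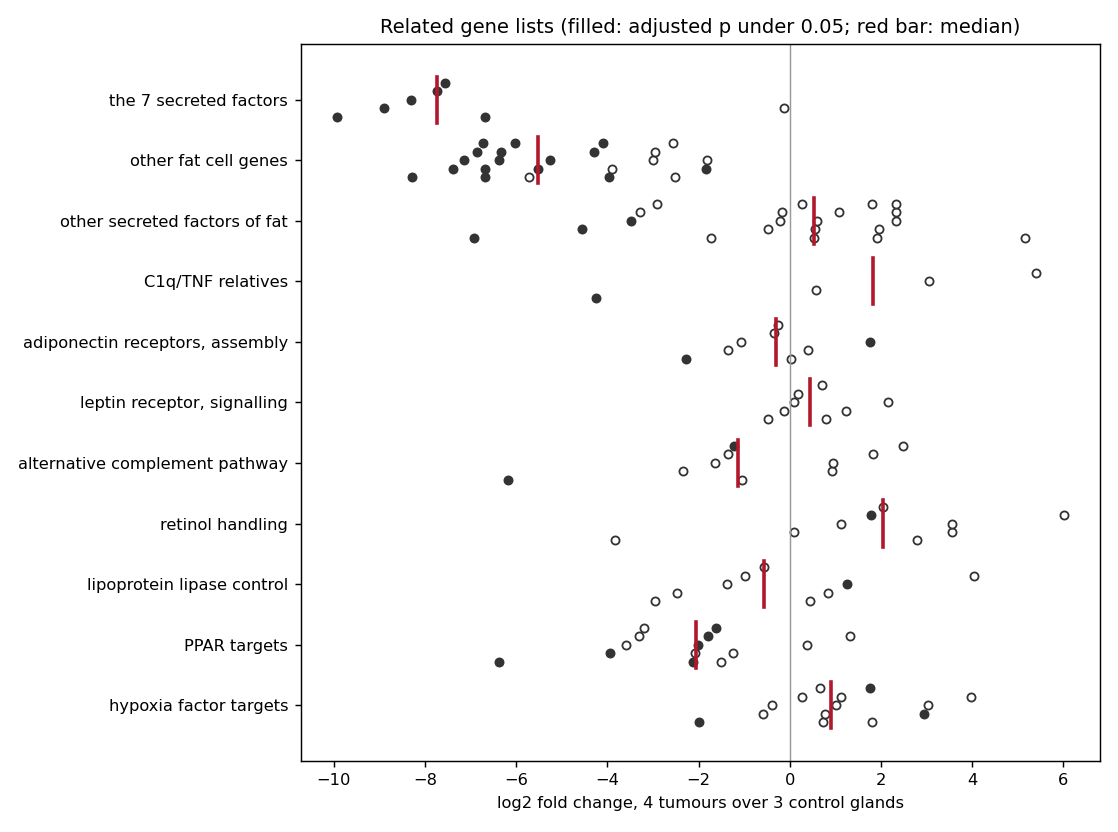
Log2 fold change of every tested gene of the related lists, 4 tumours over 3 control glands; filled points have an adjusted p under 0.05 and red bars are medians. Medians lie at -7.73 for the 7 factors and -5.53 for other fat cell genes, and at 0.90 for hypoxia factor targets.

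Few markers of other cells passed in edgeR over all tumours, and their part in these results was not tested. Of 9 epithelial genes, Krt14 rose by 5.91 (edgeR adjusted p = 0.0407) and Krt8 by 2.22 (adjusted p = 0.0343), and 7 did not pass. The summed CPM of the 9 were 1578, 1515, 1335 and 1122 in tumours 1a, 1b, 3 and 4, against 317.6, 206 and 281 in glands 1, 2 and 3. None of 18 skeletal muscle genes passed, although 17 had an unadjusted p under 0.05, and their median log2 fold change was -7.12. DESeq2 called 17 of them lower, 3 fell in edgeR without gland 2, and with gland 2 as the only control the median was 1.58. Cd163 was the only macrophage gene of 8 that passed and fell by 4.22 (adjusted p = 0.0201). In the adenosquamous comparison, where 5.01% of all genes tested rose, 3 of the 8 rose and 0 fell. They were Itgam at 4.34 (adjusted p = 0.0270), Cd68 at 3.39 (0.0261) and Lyz2 at 3.77 (0.0497) on the log2 scale. None of 12 fibroblast and preadipocyte genes, 8 endothelial genes or 2 neutrophil genes passed, with medians of -0.53, -1.42 and 3.10. In the adenosquamous comparison 3 of 4 neutrophil genes tested rose, S100a9 by 7.57 (adjusted p = 0.0180), S100a8 by 5.41 (0.0201) and Csf3r by 4.81 (0.0220). Col1a1 was the 1 fibroblast gene that rose there, by 4.21 (0.0267). The smallest p in those lists belonged to Casq1 of muscle (adjusted p = 0.0517), Lum of fibroblasts (0.101), Kdr of endothelium (0.117) and Csf3r of neutrophils (0.0928) in edgeR, and the macrophage gene Itgam had a log2 fold change of 3.55 (0.113). Over all these other-cell lists, with brown fat, 4 of 64 tested genes passed (6.25%, against 8.47% of all genes tested). An unadjusted p under 0.05 in edgeR was found for 41 of the 64, and for 4093 of all 14149 genes. DESeq2 called 13 of the 64 higher and 24 lower (57.8%), and it called 3403 of all 14149 genes. The edgeR total of passing genes was 0 without 1b, gland 1 or gland 3, 1 without the spindle cell tumour, 7 without the papillary tumour and 13 without 1a.

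Genes with the most similar pattern over the 7 libraries were picked by Pearson correlation of log2 CPM among 8446 genes. These values describe 2 separated groups and carry no test. Closest to Adipoq were Aqp7 (r = 0.996), Itih5 and Fabp4, and closest to Cfd were Car3 (r = 0.992), Nrg4 and Scn7a. Retn was most like Tshr (r = 0.995), Tusc5 and Aacs, and Lep was most like Ankrd40 (r = 0.996), Idh3a and Negr1. Rbp4 was most like Ptprb (r = 0.990), Ube2r2 and Aacs, and Angptl8 most like D5Ertd579e (r = 0.992), Ppp2r1b and Mrps22. Each of those 6 factors had 231 to 408 genes with r over 0.9. Angptl4 had 1 such gene, and Tmem5 and Dnm1 were also among the genes most like it, with r of 0.890 and 0.887.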

How the data were processed

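RNA from 4 tumours and 3 glands was sequenced as 75-base read pairs on a HiSeq instrument after TruSeq library preparation, per the labels' protocols. GRCm38 is the build, and limma, RSEM 1.3 and STAR 2.5 are the tools, listed by the submitters' processing notes, with no roles. The authors deposited 1 table per library with a column headed TPM. The values the authors deposited were taken to be expected counts (estimated counts of the kind RSEM gives): they sum to 5148438 to 35631279 and 2.34 to 6.14% of genes have values that are not whole. They were rounded to whole numbers.

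Tests used edgeR 4.0.16 (R 4.3.3): TMM scaling, a filter at 10 counts (15 in total), quasi-likelihood F test, two-sided, Benjamini-Hochberg over all genes tested, threshold 0.05. DESeq2 1.42.0, limma-voom (limma 3.58.1), other scalings and filters, omission of mitochondrial genes and of each library were alternatives. The log2 CPM of single tumours used a prior count of 2. Exact Poisson intervals (95%) and the floor of 3 counts cover counting error only. Exon lengths and positions came from GENCODE M21 (GRCm38), promoters from RefSeq GRCm38.p6. The script was tested on simulated data with set changes. Over all tumours it recovered 8% of changes of 2 on the log2 scale and 60% of changes of 4. For the adenosquamous comparison the values were 5 and 62%. A gene that did not pass may therefore still have changed.

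The members and gene lists were chosen with earlier results of these data known. Named from each list were the 2 genes with the smallest adjusted p in the direction with more passing genes, the largest change the other way (or the smallest p if none passed), and the 3 genes most like each member. Further genes (Plin1, Cidec, Ucp1, Stra6, C3, Lepr, Adipor1, Lipf, Angptl2, Rarres2 those of the adenosquamous comparison and those of the closing observations) were named after their values were seen. A few genes that the rule picked are not reported here.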

Additional observations from a re-analysis of the deposited data

Results flagged for a closer look

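Among the 4 tumours, adenosquamous tumour 1a stood far above the other 3 in 3 of the 7 factors. Adipoq was 7.24 CPM in 1a, and the next tumour had 0.136 CPM. Retn was 1.19 CPM in 1a, and the next tumour had 0.136 CPM. Cfd was 17.8 CPM in 1a, and the next tumour had 2.06 CPM. Each gap, taken on CPM, exceeded Dixon's 95% critical value for 4 samples. Chance exceeds that value in about 1 in 20 groups of normally distributed values, and 7 factors were examined. CPM near 0 are skewed and the tumours are of different types, so the rule cannot decide whether 1a is an outlier. On the log2 scale (prior count of 2), 1a and the next tumour stood at 2.88 and -1.95 for Adipoq and 0.395 and -1.95 for Retn. For Cfd they stood at 4.16 and 1.12. The spindle cell tumour, with no count, stood at -3.02 for each. Dixon's rule was not applied on that scale. Tumour 1a also had the highest summed skeletal muscle CPM of the tumours (939), the highest summed fibroblast and preadipocyte CPM (4550) and the most brown fat RNA (summed CPM 72.1), and the part of these in these values was not tested.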

How the results depend on the processing

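Lep, Retn, Rbp4, Adipoq, Cfd and Angptl8 kept a negative log2 fold change under every alternative run. Angptl4 changed sign, with no call: over all tumours it was 0.86 with library size only and 0.31 with gland 2 as the only control, and -0.40 to 0.32 with 1 library left out. In the adenosquamous comparison it was -0.017 with limma-voom, -0.012 with 10 counts required in every library of a group, and -0.63 to 0.51 with 1 library left out. The cause was not tested. For all tumours, 1199 genes passed. DESeq2 called 3403, library size only 3954 (3612 higher, 342 lower, the median of all genes moving to 1.08), gland 2 as the only control 0 (1655 at an unadjusted p under 0.05), glands 1 and 3 as the only controls 566, and 1 library left out 97 to 1351. For the adenosquamous tumours, 1525 passed, DESeq2 called 3562, library size only 3344 (3006 higher, 338 lower), no filter 2508 and 1 library left out 0 to 1498. Of the other genes of the lists, 38 passed: 99 by DESeq2, 69 by library size only, 0 with gland 2 as the only control, 20 with glands 1 and 3 as the only controls, and 4 to 52 with 1 library left out. Angptl8 lost its call over all tumours with limma-voom (adjusted p = 0.0852) and had no adjusted p in DESeq2. In the adenosquamous tumours Cfd passed with DESeq2 (4.99e-08), limma-voom (0.0371), library size only (0.0365), no filter (0.00294) and the filter at 10 counts (0.0458), and Retn, Rbp4 and Angptl8 did not pass with limma-voom. With 1 library left out, log2 fold changes over all tumours were -12.22 to -7.11 for Adipoq, -10.19 to -9.45 for Lep, -10.98 to -7.81 for Retn, -10.14 to -7.28 for Cfd, -8.02 to -5.97 for Rbp4 and -9.35 to -6.96 for Angptl8. Adenosquamous values were -11.30 to -5.61, -13.73 to -9.24, -9.58 to -6.48, -10.98 to -5.93, -6.72 to -5.09 and -11.75 to -6.90 for these genes in that order. No paired analysis was possible because tumours and glands come from separate samples whose numbers do not link them. Levels of 0 to 4 counts limit what can be said of differences between tumours.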

Other observations

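The papillary tumour, a single library with no test, kept several fat metabolism genes within or near the gland range while the hormones were near 0. Cidea, of lipid droplet growth and also known from milk fat secretion, measured 93.1 CPM there, against 149, 103 and 36.4 CPM in glands 1, 2 and 3. Cd36, a fatty acid transporter, measured 809 CPM, against 1759, 1388 and 1161 CPM in the glands. Fasn, the fatty acid synthase, measured 2457 CPM, against 2149, 8451 and 7519 CPM in the glands. Pnpla2, a triglyceride lipase, stood at 51.0% of the gland mean, Lpl at 39.8% and Pparg, the master regulator of fat cells, at 20.3%. In the same tumour Plin1 stood at 0.146% and Cidec, a fat droplet protein, at 0.145% of the gland mean. In the spindle cell tumour Cd36 was at 0.0206% and Lpl at 0.115%. Cebpa, a transcription factor of fat and other cells, was at 23.0, 30.1, 33.1 and 26.0% of the gland mean in tumours 1a, 1b, 3 and 4.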
